A study of Homo sapiens with 4 samples.

Results

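The SLC38 family of amino acid transporters was examined by RNA sequencing of glutamine-deprived and control A549 cells, an established human line from a lung adenocarcinoma. The 8 genes SLC38A1, SLC38A2, SLC38A4, SLC38A5, SLC38A6, SLC38A7, SLC38A9 and SLC38A10 were taken by name from 58560 genes, after the transcript counts of each library had been summed to genes by Ensembl ID. These 8 genes had 117 of the 229420 transcripts in the files. The deprived group (QD) was 2 libraries of A549 cells that were washed in PBS and kept in glutamine-free DMEM with serum. Replicate 1 is labelled 24 hours and replicate 2 is labelled 25 hours, while the treatment protocol names 24 hours alone. The control group (ctrl) was 2 libraries of A549 cells in complete medium with no treatment named, so the wash and change of medium cannot be told apart from the loss of glutamine. Nothing in the labels says that the libraries of a group came from separate cultures, so p-values measure only the spread between libraries, which may be technical.

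SLC38 proteins carry small neutral amino acids, glutamine prominent among them, across membranes. Those at the plasma membrane couple uptake to the inward sodium gradient, and they are known as system A or system N carriers according to their substrates and proton coupling. Others act in lysosomes, where they release glutamine or report amino acid supply to the growth-controlling kinase complex mTORC1. SLC38A2 is the member best known for being raised in amino acid shortage, through the stress-induced transcription factor ATF4.

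The libraries held 123414592 and 120425759 counts in deprived cells and 101496318 and 101982373 counts in control cells. The epithelial keratin gene KRT8 was at 886 and 714.5 CPM (counts relative to the TMM-scaled library total) in deprived cells, against 5154 and 5235 CPM in control cells, and KRT18 was at 1088 and 978 CPM, against 2235 and 2279 CPM. The summed level of 5 epithelial markers was 1730 to 2019 CPM in deprived cells and 7570 to 7681 CPM in control cells. The labels name alveolar basal cells. Of 7 alveolar type II markers, the surfactant genes SFTPC, SFTPB, SFTPA1 and SFTPA2 stayed under 1 CPM in all 4 libraries, with SFTPA1 at 0. ABCA3 was at 27.7 and 28.6 CPM in deprived and 41.2 and 41.3 CPM in control cells, LAMP3 at 2.585 and 3.03 CPM, against 0.420 and 0.0817 CPM, and NAPSA at 0.737 and 0.756 CPM, against 2.77 and 1.47 CPM. The 7 summed to 31.3 to 32.6 CPM in deprived cells and 43.3 to 44.8 CPM in control cells. All 6 fibroblast and all 4 endothelial markers were under 1 CPM in every library. The 5 blood markers summed to 1.41 to 1.72 CPM in deprived cells and 14.3 to 25.96 CPM in control cells, with CD3E at 0 in 3 libraries. Most of the control sum was CD14 (0.498 and 0.525 CPM in deprived, 13.2 and 12.4 CPM in control cells) and, in control replicate 1, HBB (0.134 and 0.111 CPM in deprived, 11.6 and 0.227 CPM in control cells). In bulk RNA, fewer cells of a type and less RNA per cell cannot be told apart, and the part of these marker levels in the results below was not tested.

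The family split in deprived cells. SLC38A1 rose, 4 members fell (SLC38A6, SLC38A7, SLC38A9 and SLC38A10), and SLC38A2, SLC38A4 and SLC38A5 did not pass the threshold in edgeR's quasi-likelihood test (adjusted p under 0.05). All 8 members passed the filter on low counts. Among 24527 tested genes, 49.6% were called in either direction, 25.2% higher and 24.4% lower. A call was thus common for any gene in these libraries, and with 8 members no departure from these shares is read from the counts. The log2 fold change (deprived over control) had a median of -0.52 over the members and -0.06 over all tested genes. The 2 deprived libraries lay on one side of both controls in 7 members, as they did in 76.5% of all tested genes. Levels below are CPM scaled by the TMM method, and errors of means are SD over the 2 libraries of a group.

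**Figure D1:**
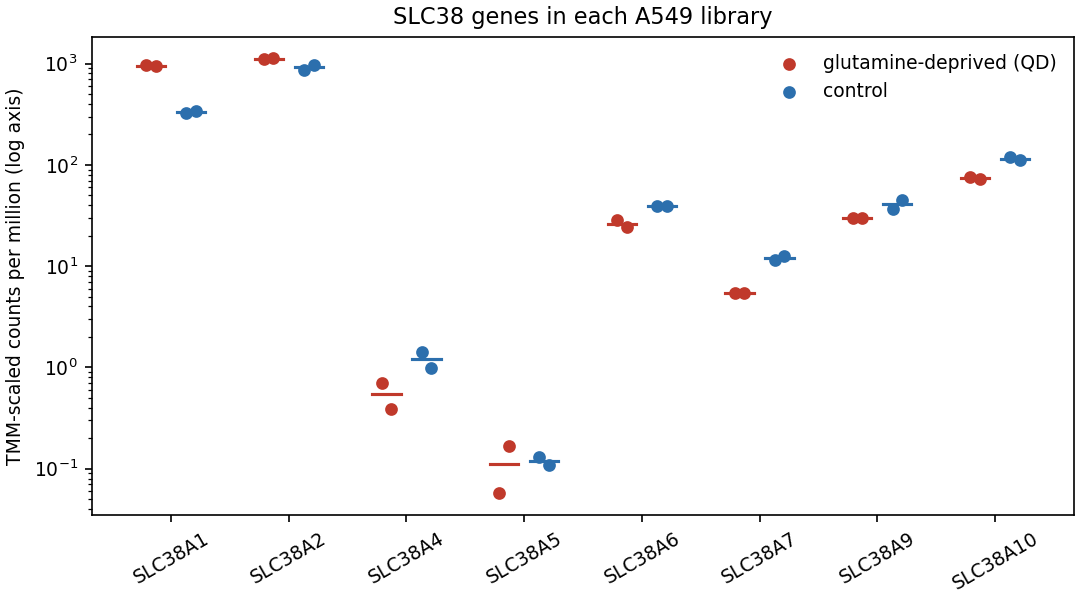
Level of each SLC38 gene in each library, as TMM-scaled CPM on a log axis (vertical), for the 8 genes (horizontal). Points are libraries and bars are group means, deprived left of control. The deprived and control points of SLC38A1 are far apart (944 and 961.5 CPM against 329 and 340.4 CPM), and those of SLC38A5 overlap.

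SLC38A1 and SLC38A2, the system A carriers of glutamine and alanine, held most of the family's RNA. Per transcript length, as TPM (length-corrected CPM), SLC38A2 was highest at 412 ± 53.0 TPM in deprived and 436 ± 5.73 TPM in control cells. SLC38A1 came next, at 217 ± 16.3 TPM and 95.6 ± 4.78 TPM. The order then ran through SLC38A10, SLC38A6, SLC38A9 and SLC38A7 to SLC38A4 and SLC38A5, and it was the same in both groups. SLC38A10 (41.3 ± 1.07 TPM in deprived, 69.0 ± 9.50 TPM in control cells) and SLC38A6 (32.5 ± 0.0918 TPM and 55.3 ± 6.86 TPM) were neighbours whose control means differed by less than the sum of their SDs. SLC38A9 was at 22.9 ± 2.40 TPM and 37.3 ± 0.791 TPM, SLC38A7 at 2.97 ± 0.705 TPM and 7.11 ± 0.0238 TPM, SLC38A4 at 0.330 ± 0.120 TPM and 1.015 ± 0.326 TPM, and SLC38A5 at 0.108 ± 0.0168 TPM and 0.113 ± 0.0498 TPM. TPM were not TMM-scaled and serve here to compare genes within a library.

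The make-up of the family moved toward SLC38A1. Of the summed TPM of the 8 members, SLC38A1 held 30.4% and 29.3% after deprivation, against 13.75% and 13.5% in control cells. SLC38A2 held 55.3% and 57.5%, against 61.1% and 63.3%. SLC38A2 exceeded SLC38A1 by a TPM ratio of 1.82 and 1.97 in deprived cells, against 4.44 and 4.68 in control cells, and neither group's ratios overlapped the other's. This ratio compares genes within a library and does not depend on scaling between libraries. The summed TPM of all 8 genes were 677 and 781 in deprived cells and 720 and 682 in control cells. These groups overlapped, but TPM were not scaled between libraries, so no difference between groups is read from them. Without length correction, but with TMM scaling, the sum was 2215 and 2202 CPM in deprived cells. It was 1405 and 1526 CPM in control cells, with no overlap. The 2 sums differ in both length correction and scaling, and the part of each was not tested.

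SLC38A1, also called SNAT1, imports glutamine together with sodium and is expressed in many tumours. The gene (ENSG00000111371) lies on chromosome 12, positions 46183063 to 46270017 of GRCh38, on the minus strand. It was at 961.5 and 944 CPM in deprived cells and at 329 and 340.4 CPM in control cells, with no overlap. The log2 fold change was 1.51 ± 0.08 (SE), or 2.85-fold, with an edgeR adjusted p of 3.94e-05, and 92.4% of tested genes had a lower log2 fold change. The transcript SLC38A1-201, of 8066 bases and 487 codons, carried 91.9% and 93.6% of the gene's counts in deprived cells and 94.0% and 92.7% in control cells. It was at 883.8 and 883.5 CPM, against 309 and 315.5 CPM. All 8 tested transcripts of the gene had a positive log2 fold change, and in 7 of them both deprived libraries lay above both controls. Over all tested transcripts, 48.6% had a positive log2 fold change and 29.2% lay above both controls in this way.

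Each transcript count was treated as an estimate that divides shared reads. Its uncertainty is not given, so tests of single transcripts are weaker than those of genes. Of 75 tested SLC38 transcripts, SLC38A1-201 was the only one called higher by edgeR (log2 fold change 1.48 ± 0.06, adjusted p = 0.0350) and 0 were called lower, beside 1.12% and 0.542% of 83759 tested transcripts. At an unadjusted p under 0.05, 9 SLC38 transcripts were higher and 7 lower, beside 12.9% and 13% of all tested transcripts, so these counts are near the background. The call of SLC38A1-201 was lost when any 1 library was left out, at nearly the same fold change (1.45 to 1.52, adjusted p = 0.177 to 0.235).

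The letters TGATGNAA of the element that ATF4 binds with C/EBP partners were searched on both strands of RefSeq promoter windows (GRCh38.p14), which run from 250 bases before to 50 after each start. Of the 12 windows of the 8 members, 1 held them, as did 3.62% of all 35116 windows. That window belongs to a RefSeq start of SLC38A1 on chromosome 12 at position 46266516. The motif, at positions 46266513 to 46266520, begins 4 bases before this start and runs across it. It lies 2492 bases downstream of the annotated start of SLC38A1-201 and outside every exon of the matched GENCODE transcripts. Exons of RefSeq transcripts were not searched. The promoter window of ASNS on chromosome 7, the asparagine synthetase gene whose element of this kind is well known, is shown beside it. That window holds the same letters 68 bases before its start. The ASNS stretch shown overlaps GENCODE exons of ASNS-201, ASNS-202, ASNS-205 and ASNS-211. The sequences read 5′ to 3′ on the gene's strand, with the motif in capitals, from chr12:46266493-46266590 (minus strand) and chr7:97872458-97872487 (minus strand).
SLC38A1: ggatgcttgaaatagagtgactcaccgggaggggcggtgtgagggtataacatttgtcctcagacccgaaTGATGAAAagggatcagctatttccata
ASNS: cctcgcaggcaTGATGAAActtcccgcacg
The other 11 member windows, that of SLC38A2 among them, do not contain these letters, which says nothing of sequence outside the windows. ASNS itself was at 579 and 530 CPM in deprived cells and at 53.5 and 52.5 CPM in control cells (3.39 ± 0.09, edgeR adjusted p = 8.64e-06).

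SLC38A2, or SNAT2 (ENSG00000134294, chromosome 12, 46358189 to 46372867, minus strand), is the neighbour of SLC38A1 on the same strand. It was at 1112 and 1124 CPM in deprived cells and at 868 and 975 CPM in control cells. The deprived libraries were both higher and the groups did not overlap, but the difference did not pass edgeR's test (log2 fold change 0.28 ± 0.09, adjusted p = 0.0525). DESeq2, limma-voom and RLE scaling called it higher (adjusted p = 0.00243, 0.0181 and 0.0435), whereas scaling by library size only gave -0.05 (adjusted p = 0.651). Summing protein-coding transcripts only gave 0.02 (adjusted p = 0.882), at 1068 and 834 CPM in deprived and 844 and 948 CPM in control cells.

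The division of SLC38A2 counts among its transcripts differed most in deprived replicate 2. The main protein-coding transcript, SLC38A2-201, was at 1059 and 826 CPM in deprived cells and at 836 and 941 CPM in control cells, and the groups overlapped. SLC38A2-208, annotated as a target of nonsense-mediated decay, the surveillance that destroys mRNAs with early stop codons, was at 28.8 and 274 CPM, against 6.02 and 8.06 CPM. It thus took 2.59% and 24.4% of the gene's counts after deprivation, against 0.693% and 0.827% in control cells. Both deprived values lay above both controls, but they differed from each other by more than the lower one differed from the controls. SLC38A2-208 itself was not called (log2 fold change 4.40 ± 1.28, edgeR adjusted p = 0.150), and its log2 fold change was 2.05 without deprived replicate 2 and 5.27 without deprived replicate 1.

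SLC38A2-208 lacks exon 4 of the 16 exons of SLC38A2-201, 116 coding bases at chr12:46370512-46370627 (GRCh38). That length is no multiple of 3, and the annotated reading frame shortens to 88 codons from 506 codons. At 4384 bases, against 4888 bases for SLC38A2-201, SLC38A2-208 differs elsewhere as well. The exon, and the junctions at which the pair differs there, are shown from the GENCODE transcript sequences, 5′ to 3′ on the minus strand. In the junctions the shared end of exon 3 is in lower case and the bases that follow it are in capitals.
SLC38A2-201 exon 4: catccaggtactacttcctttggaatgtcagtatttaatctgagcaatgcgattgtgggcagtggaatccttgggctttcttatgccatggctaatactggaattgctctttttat
SLC38A2-201: tatgaaacagaatttCATCCAGGTACTACT
SLC38A2-208: tatgaaacagaatttAATTCTCTTGACATT
A test of unequal fold changes among the transcripts of a gene (edgeR diffSpliceDGE) called 17.6% of 12607 genes. Of the 6 members with at least 2 tested transcripts, SLC38A2 alone was called (F = 5.32, diffSpliceDGE adjusted p = 0.00296). With 6 members, no departure from that share is read from this call. Leaving out deprived replicate 2 (adjusted p = 0.126), control replicate 1 (0.396) or control replicate 2 (0.265) ended this call, and leaving out deprived replicate 1 did not (0.000728). Over the whole of each library, transcripts annotated for nonsense-mediated decay held 2.51% and 2.61% of matched counts in deprived cells, against 2.25% and 2.30% in control cells.

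**Figure D2:**
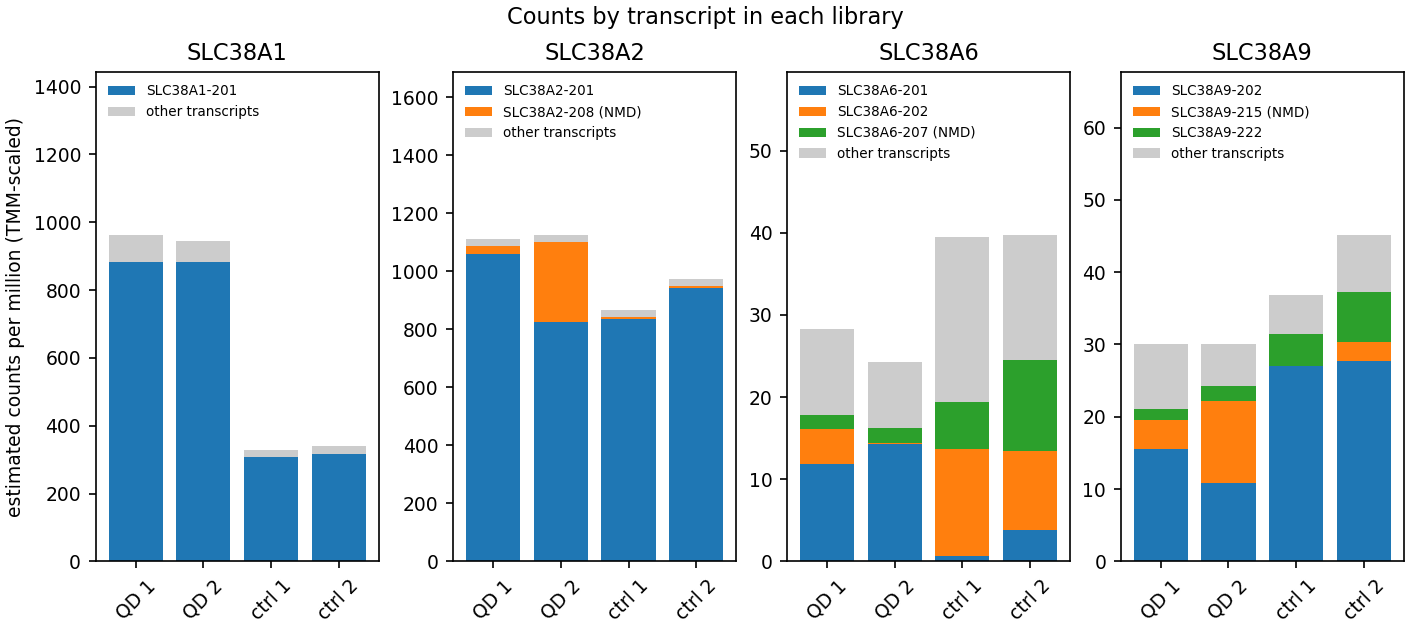
Stacked bars of TMM-scaled estimated CPM by transcript (vertical) in each library (horizontal, deprived left of control) for 4 SLC38 genes, each with its own scale. Transcripts with at least 10% of a gene's counts in either group mean have their own colour, NMD marks those annotated for nonsense-mediated decay, and grey holds the rest. Most SLC38A1 counts are on SLC38A1-201 in every library, while SLC38A2-208 takes 274 CPM in deprived replicate 2 and 28.8 CPM in deprived replicate 1.

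The profiles most like those of SLC38A1 and SLC38A2 were sought among 9517 other protein-coding genes of at least 10 CPM, by Euclidean distance of mean-centred log2 CPM over the 4 libraries. For SLC38A1 they were NUP58 (distance 0.00926), TCF12 (0.0148) and RNF121 (0.0271), and for SLC38A2 they were NTMT1 (0.0198), CUL2 (0.0230) and AFTPH (0.0288). With 2 libraries a group, this likeness describes little beyond an equal fold change: NUP58 was at 323 and 316 CPM in deprived and 110 and 114 CPM in control cells.

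The remaining plasma membrane members were close to undetected. SLC38A4, or SNAT4 (ENSG00000139209, chromosome 12, 46764761 to 46832408), is a carrier of liver and placenta that also takes up cationic amino acids. It had 74 and 42 counts in deprived cells, against 164 and 109 counts in control cells, nearly all on SLC38A4-201. The deprived libraries were both lower, and the difference just missed the threshold (log2 fold change -1.15 ± 0.40, edgeR adjusted p = 0.0570). SLC38A5, or SNAT5 (ENSG00000017483, chromosome X, 48458537 to 48470256), a system N carrier that exchanges protons, had 6 and 18 counts in deprived cells and 15 and 12 counts in control cells. SLC38A5-206, a retained-intron transcript, had 6 and 1 counts, against 3 and 0 counts, and the coding SLC38A5-210 had 0 and 17 counts, against 12 and 12 counts. These groups overlapped (-0.10 ± 0.77, edgeR adjusted p = 0.927), and at this depth no difference in SLC38A5 was detectable. SLC38A1, SLC38A2 and SLC38A4 lie in that order along chromosome 12, and their log2 fold changes spanned 1.51 to -1.15.

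Antisense RNAs named after these neighbours were low. SLC38A2-AS1 had 39 and 38 counts in deprived cells and 55 and 83 counts in control cells, and SLC38A4-AS1 had 39 and 60 counts, against 93 and 89 counts. Neither was called by edgeR (adjusted p = 0.150 and 0.0981), and neither shares exon bases with SLC38A2 or SLC38A4. DDX4, which lies opposite SLC38A9 with no shared exon bases, had 2 and 0 counts in deprived cells and 6 and 8 counts in control cells. Of the family genes outside the 8, SLC38A11 had 0 and 0 counts in deprived cells and 57 and 33 counts in control cells. SLC38A11 passed the filter on low counts through the control libraries alone, so a call could only be lower. It was called lower (edgeR adjusted p = 0.00289), at a low level, and this call is not read further. SLC38A3 and SLC38A8 did not pass the filter and had 0 counts in 3 libraries, with 26 and 4 counts in control replicate 1. The last 3 genes were looked at after the values of the others had been seen.

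Both lysosomal members fell. SLC38A7, or SNAT7 (ENSG00000103042, chromosome 16, 58665109 to 58685104), exports glutamine and asparagine from lysosomes. It was at 5.41 and 5.49 CPM in deprived cells and at 11.4 and 12.6 CPM in control cells, so the deprived level was about 0.453-fold the control level (log2 fold change -1.14 ± 0.13, edgeR adjusted p = 0.000759). Its transcripts SLC38A7-201 and SLC38A7-215 both have 462 codons and differ in their first exons. SLC38A7-201 had 0 and 292 counts in deprived and 904 and 517 counts in control cells, and SLC38A7-215 had 506 and 158 counts, against 249 and 710 counts. Counts shifted between this pair from library to library within each group, whereas the gene's sum was steady.

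SLC38A9 (ENSG00000177058, chromosome 5, 55625845 to 55773194) is an arginine sensor of the lysosomal membrane that binds the Rag GTPases and the Ragulator complex. It was at 30.1 and 30.1 CPM in deprived cells and at 36.9 and 45.1 CPM in control cells (log2 fold change -0.44 ± 0.11, edgeR adjusted p = 0.0166). The groups did not overlap, and the call was lost without control replicate 2, the higher control (-0.31, adjusted p = 0.0807). The main transcript, SLC38A9-202 of 561 codons, was at 15.6 and 10.8 CPM in deprived cells and at 27.0 and 27.7 CPM in control cells. SLC38A9-215, annotated for nonsense-mediated decay, was at 4.02 and 11.3 CPM, against 0 and 2.71 CPM. The retained-intron transcript SLC38A9-222 was at 1.53 and 2.14 CPM, against 4.42 and 6.92 CPM. The share of SLC38A9 counts on protein-coding transcripts was 76.7% and 49.4% in deprived cells, against 83.5% and 75.4% in control cells.

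SLC38A9-215 resembles SLC38A2-208 in its structure. It also lacks exon 4 of 16, here 133 coding bases at chr5:55672563-55672695 (GRCh38), again no multiple of 3, and its annotated reading frame has 43 codons. At 2370 bases, against 2927 bases for SLC38A9-202, SLC38A9-215 differs elsewhere as well. The exon and the junctions, 5′ to 3′ on the minus strand and written as above, are as follows.
SLC38A9-202 exon 4: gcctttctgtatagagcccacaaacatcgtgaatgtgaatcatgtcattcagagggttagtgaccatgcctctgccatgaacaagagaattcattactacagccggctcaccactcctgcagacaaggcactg
SLC38A9-202: tctaagatccaaaagGCCTTTCTGTATAGA
SLC38A9-215: tctaagatccaaaagATTGCCCCAGACCAT
SLC38A9-215 was not called (log2 fold change 2.47 ± 2.55, edgeR adjusted p = 0.604). Its log2 fold change ran from 1.47 without control replicate 1 to 12.70 without control replicate 2, where the remaining control had 0 counts and the fitted value is no bound. The transcript make-up of SLC38A9 was not called either (diffSpliceDGE adjusted p = 0.785). Deprived replicate 2 held more of both exon-4-skipping transcripts than deprived replicate 1.

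SLC38A6 and SLC38A10 are less studied members. SLC38A10 (ENSG00000157637, chromosome 17, 81245000 to 81295547, minus strand) was at 76.65 and 73.1 CPM in deprived cells and at 119 and 112 CPM in control cells (log2 fold change -0.62 ± 0.07, edgeR adjusted p = 0.000738). Its longest coding transcript, SLC38A10-202 of 1119 codons, was at 42.3 and 51.2 CPM, against 89.5 and 92.9 CPM. SLC38A10-201, of 780 codons, was at 19.2 and 7.17 CPM in deprived cells and 16.96 and 6.34 CPM in control cells, so it varied more between replicates than between groups. The retained-intron transcript SLC38A10-210 was at 10.7 and 10.3 CPM, against 6.56 and 8.26 CPM. Of the genes opposite SLC38A10, ENSG00000276101 shares 610 exon bases and had 0 counts in all libraries, and ENSG00000279187 shares none and had 67 and 74 counts in deprived, against 148 and 87 counts in control cells. The make-up of SLC38A10 did not pass the diffSpliceDGE threshold (adjusted p = 0.0637).

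SLC38A6 (ENSG00000139974, chromosome 14, 60981114 to 61083733, plus strand), an orphan carrier, was at 28.3 and 24.2 CPM in deprived cells and at 39.5 and 39.7 CPM in control cells (log2 fold change -0.59 ± 0.10, edgeR adjusted p = 0.00304). That difference lay outside its protein-coding transcripts. These summed to 19.6 and 16.8 CPM in deprived cells, against 15.9 and 18.4 CPM in control cells, and tested alone they gave 0.03 (adjusted p = 0.845). Transcripts annotated for nonsense-mediated decay held 22.03% and 25.1% of the gene's counts in deprived cells, against 51.1% and 47.4% in control cells. The share was lower in both deprived libraries of SLC38A6, whereas it was higher in both for SLC38A2 and SLC38A9. For SLC38A7 it was also lower in both, on few counts (0.531% and 0.671% in deprived, 1.61% and 0.790% in control cells). How often this share separates the groups over all genes was not computed, so the contrast is not read further. The decay-annotated SLC38A6-207 was at 1.70 and 1.84 CPM, against 5.73 and 11.2 CPM (edgeR adjusted p = 0.0945).

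Within the coding transcripts of SLC38A6, SLC38A6-201 (456 codons) was at 11.9 and 14.3 CPM in deprived cells and at 0.683 and 3.87 CPM in control cells. SLC38A6-202 (521 codons), with other last exons, was at 4.19 and 0.101 CPM, against 13.0 and 9.52 CPM. Neither pair of groups overlapped, but neither transcript was called by edgeR (adjusted p = 0.221 and 0.462), nor was the make-up of the gene (adjusted p = 0.241). Of the 5147 exonic bases of SLC38A6, 245 are shared with TRMT5 on the other strand, and since no strand setting is given, reads there cannot be assigned with certainty. An unnamed transcript gene on the same strand, ENSG00000258892, shares 78 of these bases and had 2 and 1 counts in deprived and 1 and 0 counts in control cells. TRMT5, a tRNA methyltransferase gene, was at 45.9 and 43.8 CPM in deprived cells and 42.7 and 44.2 CPM in control cells and was not called (edgeR adjusted p = 0.635).

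**Figure D3:**
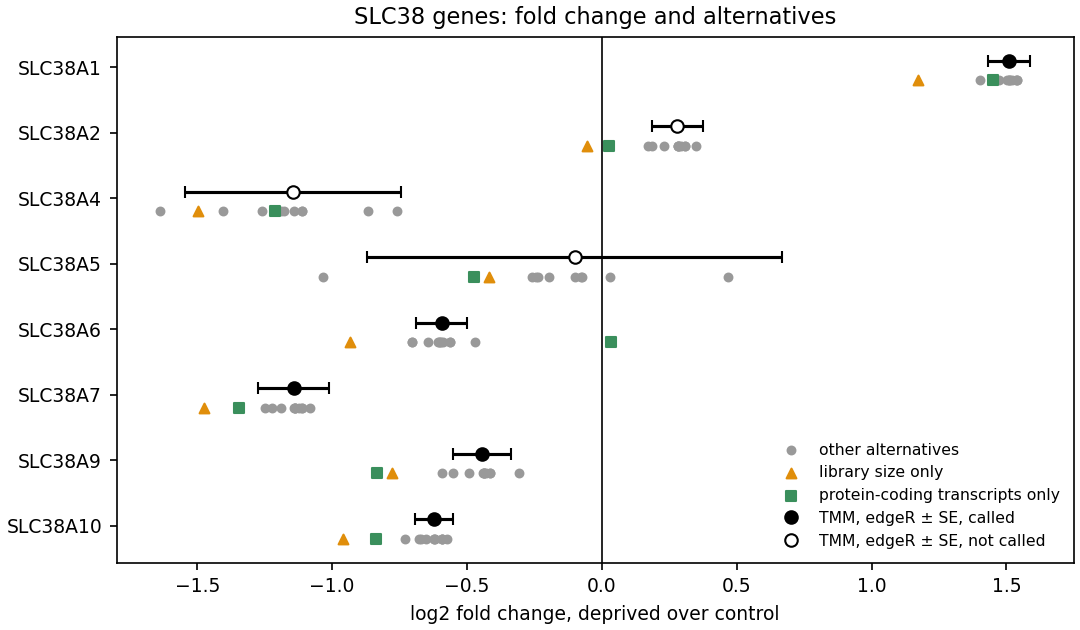
Log2 fold change, deprived over control (horizontal), for the 8 SLC38 genes (vertical). Black circles with bars are edgeR values with TMM ± SE, filled where called, and the marks under them are the alternative settings. All marks of SLC38A1 lie right of 0 and all those of SLC38A7, SLC38A9 and SLC38A10 left of it, while SLC38A6 reaches 0.03 when protein-coding transcripts alone are summed.

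Other carriers of glutamine at the plasma membrane, with the partner chains SLC3A1 and SLC3A2, were set beside the family. Of 10 listed, 7 were tested, and edgeR called 5 higher and 1 lower (median log2 fold change 0.57), beside 25.2% and 24.4% of all tested genes. SLC7A6, a cationic and neutral amino acid exchanger, was at 275 and 264.5 CPM in deprived and 89.8 and 87.8 CPM in control cells (1.60 ± 0.07, adjusted p = 2.43e-05). SLC7A5, which exchanges intracellular glutamine for leucine, was at 661 and 741 CPM, against 321.5 and 300.3 CPM (1.17 ± 0.09). Its partner chain SLC3A2 was at 2926 and 2445 CPM, against 979.5 and 983 CPM (1.45 ± 0.12). The other partner chain, SLC3A1, was also called higher. It was at 6.51 and 6.68 CPM, against 3.88 and 5.02 CPM (0.57 ± 0.18, edgeR adjusted p = 0.0444). SLC1A5, the exchanger known as ASCT2, was at 477 and 434.5 CPM, against 333 and 304 CPM (0.52 ± 0.09, adjusted p = 0.00422). SLC7A7 was the listed gene that fell, with 1.67 and 2.22 CPM, against 16.2 and 15.1 CPM (-3.01 ± 0.18). With library size only, 3 rather than 5 of these genes were called higher.

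Partners of SLC38A9 in lysosomal amino acid sensing were 16 listed genes, each tested singly, and the list itself was not tested. Of these, edgeR called 9 higher and 3 lower (median 0.54), beside 25.2% and 24.4% of all tested genes (median -0.06). FNIP1, of the folliculin complex that acts on the Rag GTPases, was at 240 and 244 CPM in deprived cells and 93.1 and 92.0 CPM in control cells (1.39 ± 0.07, adjusted p = 3.21e-05). Its partner FLCN (0.82 ± 0.07) and the Rag GTPase genes RRAGA (1.10 ± 0.10) and RRAGC (1.02 ± 0.08) also rose. The other Rag GTPase genes were not called. RRAGB was at 0.13 ± 0.13 (edgeR adjusted p = 0.461). RRAGD, lower in both deprived libraries, was at -0.39 ± 0.15 (edgeR adjusted p = 0.085). The Ragulator subunits went both ways, with LAMTOR3 and LAMTOR5 higher (1.09 ± 0.11 and 0.59 ± 0.07) and LAMTOR1, LAMTOR2 and LAMTOR4 lower (-0.47 ± 0.10, -0.99 ± 0.11 and -0.45 ± 0.13).

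Of 5 related carriers in the SLC32 and SLC36 families, 2 passed the filter and edgeR called 0, with unadjusted p = 0.781 for SLC36A1 and 0.0687 for SLC36A4. DESeq2 and limma-voom also called 0. The proton-coupled lysosomal carrier SLC36A1 was at 27.6 and 26.2 CPM in deprived and 28.01 and 24.8 CPM in control cells. SLC36A4 was at 42.1 and 42.5 CPM, against 39.2 and 36.1 CPM.

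Of 7 genes that control SLC38 carriers, 6 were called higher and 0 lower by edgeR (median 0.91), beside 25.2% and 24.4% of all tested genes. RNF5, the gene not called, was at 13.99 and 12.6 CPM in deprived and 14.1 and 16.8 CPM in control cells (-0.22 ± 0.13, edgeR adjusted p = 0.222). The smallest of the 6 rises was that of EIF2AK4 (0.22 ± 0.06, edgeR adjusted p = 0.0316). ATF4 was at 409 and 670 CPM in deprived cells and 165 and 132 CPM in control cells (1.86 ± 0.24). Its dimer partner CEBPG was at 303 and 300 CPM, against 78.1 and 78.3 CPM (1.95 ± 0.07). CEBPB, another transcription factor that binds with ATF4, rose by 0.69 ± 0.10. NEDD4L, a ubiquitin ligase that removes SLC38A2 from the cell surface in studies of mouse cells, was at 161 and 160.5 CPM, against 84.4 and 86.4 CPM (0.91 ± 0.07), and the kinase gene SGK1, which restrains that ligase, was at 72.2 and 63.8 CPM, against 33.4 and 36.0 CPM (0.97 ± 0.09).

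**Figure D4:**
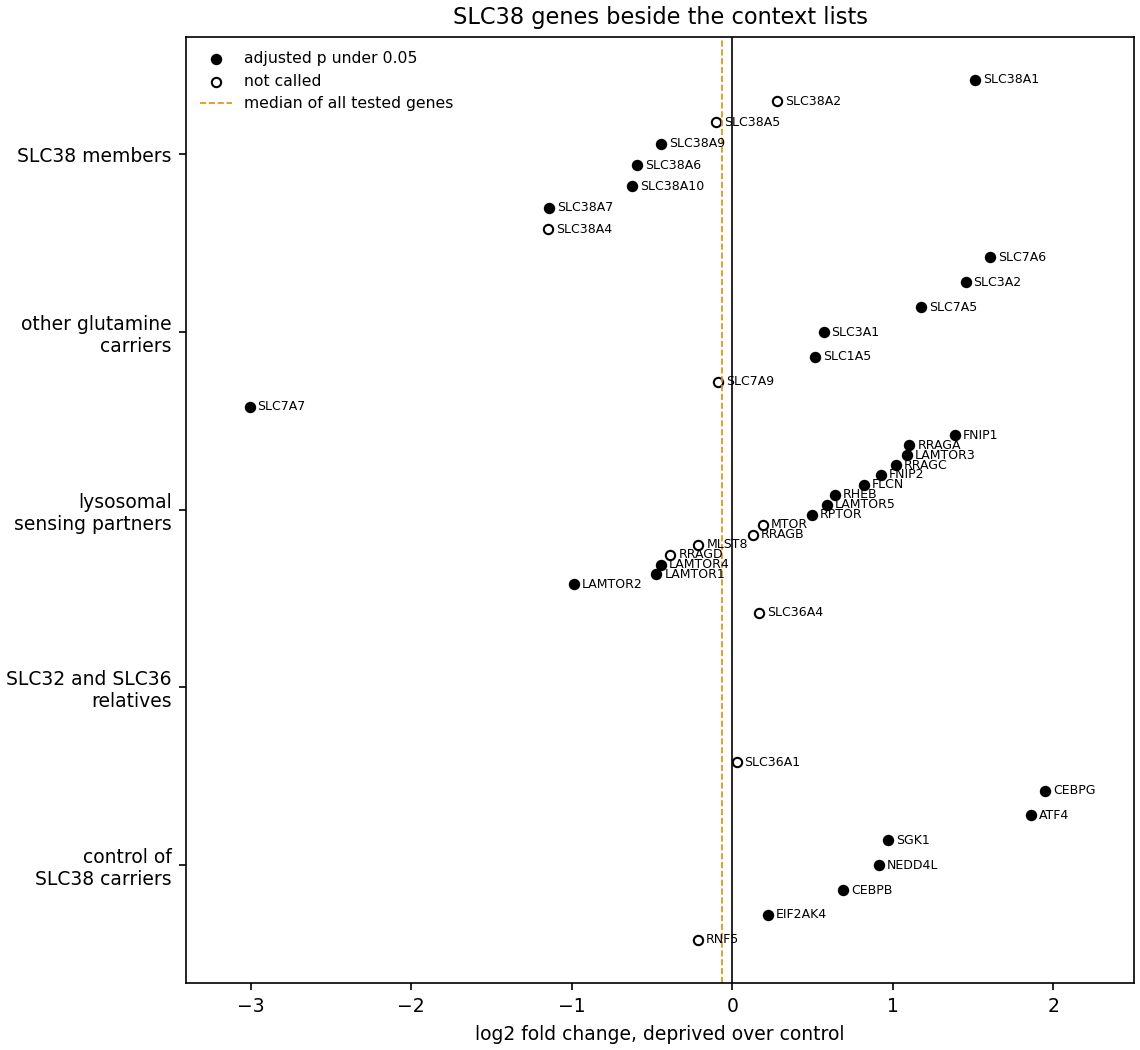
Log2 fold change, deprived over control (horizontal), for each tested gene of the SLC38 family and of 4 context lists (vertical). Filled circles are genes with an edgeR adjusted p under 0.05, open circles are not called, and the dashed line is the median of all tested genes (-0.06). In the SLC38 row 1 filled circle lies right of 0 and 4 left of it. In the row of other glutamine carriers, which includes the partner chains SLC3A1 and SLC3A2, 5 lie right and 1 left.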

How the data were processed

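Each library came as 1 deposited table of whole numbers per transcript, named counts in its header. These deposited values were treated as estimated counts, on the assumption that reads of overlapping transcripts were divided among them. The submitters' processing notes name HISAT2 2.0.5, featureCounts 1.5.0-p3, DESeq2 1.20.0 and hg38, with no role. How reads were assigned to transcripts, and by which annotation, is not given in the sources used here.

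GENCODE release 29 matched 205306 of 229420 transcripts, holding 98.04% to 98.25% of counts, and 24114 were left out. Counts were summed to genes, filtered with filterByExpr, scaled by TMM and tested two-sided by edgeR 4.0.16 in R 4.3.3 (glmQLFit, then glmQLFTest), with Benjamini-Hochberg adjustment over every tested gene. The biological coefficient of variation was 0.21 in common. SE is the size of the log2 fold change over the square root of F. Transcripts were tested likewise, and diffSpliceDGE tested transcript make-up. TPM used annotated spliced lengths. Replicates differed beyond sampling noise (chi-square per degree of freedom 48.8 in deprived and 34.7 in control cells). The procedure was also run on simulated data. These had less spread between replicates and far fewer changed features than the real libraries, so the run does not measure error rates here.

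The members and lists were chosen with earlier results of these data known. Genes named are the members, their transcripts with at least 10% of a gene's counts in either group mean, in each list the 4 tested genes of smallest p, SLC1A5, ATF4, CEBPB and ASNS, 3 genes of like profile for each of SLC38A1 and SLC38A2, and genes that overlap a member or carry its name. The LAMTOR genes, RRAGB, RRAGD, SLC3A1, RNF5 and EIF2AK4 were added after their values were seen. Alternatives were RLE, upper-quartile and library-size scaling, filters, DESeq2 1.42.0, limma-voom (limma 3.58.1), each library left out, a replicate block and protein-coding transcripts only. The deposited table of long non-coding RNAs was not used.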

Additional observations from a re-analysis of the deposited data

How the results depend on the processing

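Under all 13 alternatives SLC38A1, SLC38A7 and SLC38A10 were called in the same direction. The median over all tested genes was -0.06 with TMM, -0.17 with upper-quartile factors and -0.40 with library size only, where 4179 genes were called higher and 8565 lower, beside 6174 and 5982 with TMM. SLC38A2 was called higher with RLE (0.31), DESeq2 (0.31) and limma-voom (0.28), which made 2 members higher, and it was -0.055 with library size only. SLC38A4 was called lower with upper-quartile factors (-1.26), library size only (-1.50), at least 50 counts in 2 libraries (-1.20), limma-voom (-1.19) and the replicate block (-1.18). SLC38A6 was 0.032 with protein-coding transcripts only. Leaving out 1 library at a time gave -1.64 to -0.76 for SLC38A4 (called without deprived replicate 1), -1.03 to 0.47 for SLC38A5 and -0.59 to -0.31 for SLC38A9. Library size only left 3 genes higher in the list of other glutamine carriers and their partner chains. It made 5 sensing partners lower (also 5 with upper-quartile factors), with 1 permease relative and 1 control gene lower. SLC38 transcripts called higher numbered 0 without the filter, 0 in the replicate block, 4 at 50 counts (1 lower), and 0 whichever library was left out. SLC38A2-201 was -0.26 with library size only and -0.011 at 50 counts, and SLC38A10-201 was -0.20 with library size only. With libraries left out, SLC38A2-201 ran from -0.12 to 0.27, SLC38A5-210 from -6.56 to 0.54, SLC38A7-215 from -1.58 to 0.49 and SLC38A10-201 from -0.71 to 1.02. Transcript make-up was called in 2 members at 50 counts, with SLC38A1 added (diffSpliceDGE adjusted p = 0.0318), and in 0 to 2 members with libraries left out. Its adjusted p by diffSpliceDGE then ran from 0.0476 to 0.950 for SLC38A1, 0.000728 to 0.396 for SLC38A2, 0.0282 to 0.863 for SLC38A6 and 0.0244 to 0.624 for SLC38A7. For transcripts and transcript make-up, the shares of all tested features called are given for the main settings alone. Counts of SLC38 calls under the other settings thus have no background and are not read further. The cause of the changes across settings was not tested. Same-numbered libraries did not deviate together (correlation across genes -0.023), and the replicate block ended or added no member call but that of SLC38A4. Its low counts limit what can be said of SLC38A5.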
